A study of Mus musculus with 11 samples.

Results

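The effect of adrenomedullin 2 (ADM2) on IL-25-stimulated group 2 innate lymphoid cells (ILC2s) was measured by RNA sequencing. ILC2s are lymphocytes resident in tissues, and the cells used here were obtained by sorting from large intestine of C57BL/6 mice (WT). Every culture lasted 3 h, with IL-2 (100 ng/ml) and IL-7 (100 ng/ml) present in all groups. The comparison set cultures given 100 ng/ml IL-25 and 0.4 µg/ml ADM2 against cultures given 100 ng/ml IL-25 alone. Libraries were assigned by their sample titles, which gave 3 IL-25 libraries (replicates 1 to 3) and 2 IL-25 plus ADM2 libraries (replicates 2 and 3), 5 of the 11 libraries of the series. The 11 libraries held no replicate 1 of IL-25 plus ADM2. The other 6 libraries were 3 vehicle cultures and 3 cultures with ADM2 alone. They entered the fit that gave the p-values, and their values are given where they place a level. Whether the replicates are different animals is not stated in the labels. The p-values therefore weigh each difference only against the spread among these libraries, estimated over all 11, and that spread may be technical. In RNA from whole cultures, fewer cells of a type and less RNA per cell cannot be told apart.

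ILC2s answer alarmins such as IL-25, which binds the receptor subunit IL-17RB, by secreting IL-5, IL-13 and amphiregulin. ADM2, also called intermedin, belongs to the calcitonin gene-related peptide (CGRP) family, in which CGRP, adrenomedullin and ADM2 signal by way of CALCRL joined to one of the RAMP co-receptors. This receptor couples to the G protein Gs, which raises cyclic AMP (cAMP), activates protein kinase A (PKA) and leads to transcription through CREB at DNA sites called cAMP response elements.

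Total counts were 25809256 to 34636127 in the IL-25 libraries and 31084491 to 32150470 in the IL-25 plus ADM2 libraries. All 17 ILC2 markers examined were detected, with a summed level of 18810 to 20190 CPM (counts scaled to the normalised size of each library) with IL-25 and 29060 to 31310 with IL-25 plus ADM2. Much of this gain was Il5, at 5321, 4436 and 5281 CPM with IL-25 and 12538 and 14859 CPM with ADM2 added. Of the 17 markers, 9 were called higher with ADM2 and 0 lower. The 10 T cell markers summed to 19.8 to 26.7 CPM and 25.5 to 28.2 CPM in the same order, with no call. T cell receptor genes held 0.038%, 0.0317% and 0.0335% of counts with IL-25 and 0.0472% and 0.0523% with ADM2 added, without overlap. Their share was 0.0627%, 0.0681% and 0.0625% with vehicle and 0.0688%, 0.0612% and 0.0653% with ADM2 alone. The 7 B and plasma cell markers summed to 338 to 497 and 415 to 485 CPM, nearly all of it Jchain, which had 479, 321 and 378 CPM with IL-25 and 393 and 458 CPM with ADM2 added. The 7 mast cell and basophil markers summed to 12.2 to 14.4 CPM with IL-25 and 36.3 to 51.0 CPM with ADM2 added, and the 8 epithelium markers to 148 to 178 and 71.6 to 98.9 CPM, with 1 called gene each (Hdc higher and Epcam lower). The 6 dendritic cell markers summed to 84.4 to 86.9 and 124 to 141 CPM (1 called higher, 1 lower, 2 at 0). Those of NK cells and ILC1s (70.4 to 79.4 and 82.3 to 96.9 CPM) and of ILC3s (130.4 to 144 and 148 to 153 CPM) had 1 called higher each. Enteric glia and neuron markers summed to at most 2.79 CPM. The part of such cells in the results was not tested. The 8 stroma and endothelium markers (408 to 499 and 383 to 444 CPM) and the 9 macrophage, monocyte and neutrophil markers (19.3 to 25.9 and 22.5 to 27.7 CPM) also had no call.

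ADM2 added to IL-25 changed the level of 2198 of 15028 genes tested (14.6%) at a Benjamini-Hochberg adjusted p below 0.05 in edgeR's quasi-likelihood test. Of these, 981 genes (6.53% of those tested) were higher and 1217 (8.1%) lower, so that 44.6% of the calls were increases. This split depended on the scaling: with upper-quartile factors 1233 genes were higher and 914 lower. The shares of 6.53% and 8.1% are the background for the counts of gene groups below. Those groups were chosen with earlier results of these data known. Increases were the larger changes, with 322 called genes at least 2-fold higher (2.14%) and 177 at least 2-fold lower (1.18%), 3.32% together. The median log2 fold change over all genes was -0.01. These calls came from a fit to all 11 libraries, and a fit to the 5 compared libraries alone called 1481 genes. The number of calls leaned on both IL-25 plus ADM2 libraries, since leaving out replicate 2 gave 1320 calls and leaving out replicate 3 gave 1263.

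**Figure D1:**
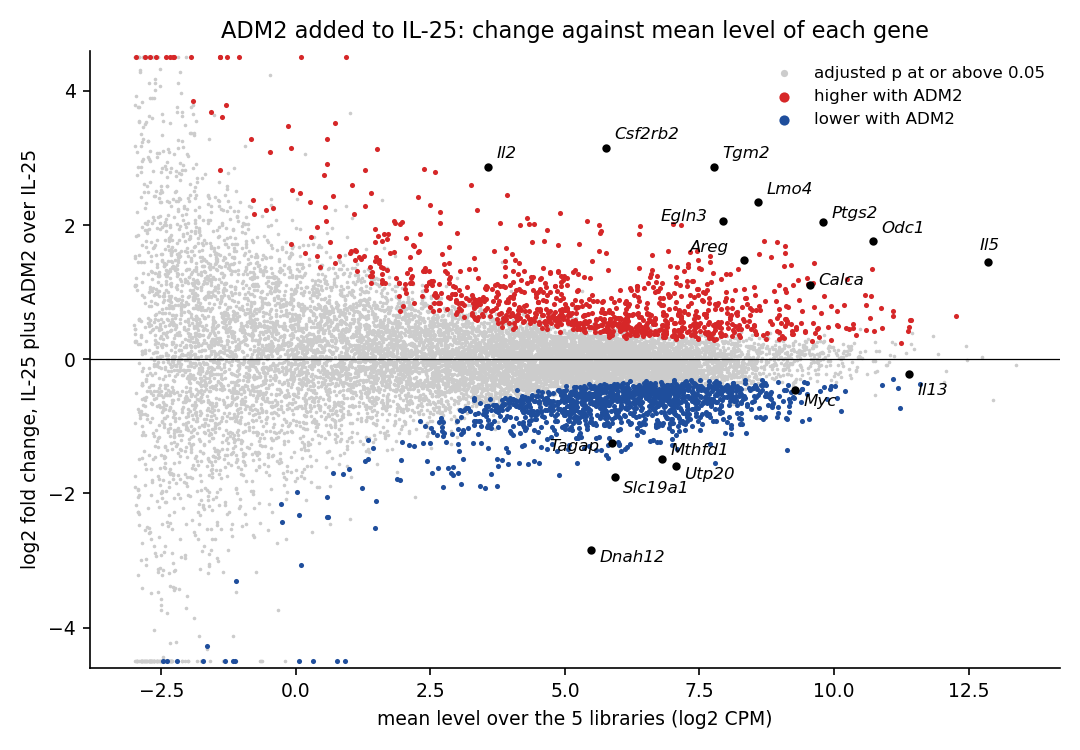
Log2 fold change of IL-25 plus ADM2 over IL-25 (y axis, values beyond 4.5 drawn at the edge) against the mean log2 CPM of the 5 libraries (x axis), 1 point for each gene with a mean above -3. Red points are called higher, blue points lower and grey points neither, and black points are named genes such as Csf2rb2 at 3.16 and Dnah12 at -2.84.

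Among the genes of the CGRP family, the co-receptor Ramp3 and the ligand genes Calca and Adm were higher with ADM2, and the receptor Calcrl was lower. Ramp3 had 526, 532 and 529 CPM in the 3 IL-25 libraries and 1299 and 1575 CPM in the 2 IL-25 plus ADM2 libraries. Both ADM2-treated libraries lay above all 3 others, as was so for 18.9% of all genes (20.5% lay below). Ramp3 rose with a log2 fold change of 1.44 ± 0.10 (± SE, as for all fold changes below, adjusted p = 5.42e-07). Calca, which encodes calcitonin and CGRP, had 628, 478 and 569 CPM with IL-25 and 1086 and 1317 CPM with ADM2 added (log2 fold change 1.11 ± 0.14, adjusted p = 9.41e-05). Adm, which encodes adrenomedullin, was scarce, at 3.08, 4.4 and 1.39 CPM with IL-25 and 11.2 and 7.98 CPM with ADM2 added (log2 fold change 1.70 ± 0.40, adjusted p = 0.0093). The groups did not overlap for either ligand gene. Calcrl, the receptor that CGRP, adrenomedullin and ADM2 share, had 52.2, 42 and 37.7 CPM with IL-25 and 28.9 and 28.2 CPM with ADM2 added (log2 fold change -0.62 ± 0.16, adjusted p = 0.0176). The call of Calcrl did not hold when IL-25 replicate 1 or either IL-25 plus ADM2 library was left out, where the adjusted p reached 0.114, and that of Adm was lost without IL-25 plus ADM2 replicate 2 (adjusted p = 0.103). Ramp1, the co-receptor that makes the classical CGRP receptor, had 10.8, 5.48 and 7.29 and 10.7 and 8.6 CPM and its groups overlapped (adjusted p = 0.517). Adm2 itself, Iapp and Calcr did not reach the count needed for a test.

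Of 32 tested genes of cAMP production, PKA and phosphodiesterases, 6 were higher and 1 lower (2 lower without IL-25 replicate 1 or 2 or ADM2 replicate 2), with a median log2 fold change of 0.28. Akap12, a scaffold that anchors PKA, had 12.2, 19.8 and 17.4 CPM with IL-25 and 71.9 and 78.4 CPM with ADM2 added (log2 fold change 2.19 ± 0.23, adjusted p = 1.56e-05). The phosphodiesterase genes Pde4b and Pde4d, whose products break down cAMP, rose with log2 fold changes of 1.00 ± 0.11 and 0.73 ± 0.11. The regulatory PKA subunit Prkar1a (0.54 ± 0.09) and Gnas (0.45 ± 0.08), which encodes the Gs alpha subunit, also rose. Akap1, a PKA anchor of mitochondria, went the other way, from 35.8, 31.1 and 34.2 CPM to 13.2 and 13.9 CPM (log2 fold change -1.31 ± 0.16, adjusted p = 5.6e-05). Within the CREB family and its co-regulators, 3 of 12 members were higher and 1 lower. Crem, the cAMP-inducible family member that also gives rise to a repressor, had 397, 316 and 346 CPM with IL-25 and 957 and 1167 CPM with ADM2 added, without overlap (log2 fold change 1.59 ± 0.12, adjusted p = 1.03e-06). The kinase gene Sik1, which restrains CREB co-activators and is itself a CREB target, rose by 1.54 ± 0.16, and Creb3l2 by 1.23 ± 0.19. Creb1 was called lower at -0.37 ± 0.11, a call that was lost in 10 of 20 other settings, among them without either IL-25 plus ADM2 library, IL-25 replicate 1 or 3, vehicle replicate 1 or 3, or ADM2 replicate 3 (adjusted p up to 0.211).

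The genes known to be induced by cAMP and CREB mostly rose. Of 32, 25 were called higher, 0 lower and 7 neither in edgeR's quasi-likelihood test. At an unadjusted p below 0.05, 0 were lower, and 0 with DESeq2. The lowest estimate, that of a member not called, was -6.255. By comparison, 6.53% of all genes tested were called higher. The list was chosen with earlier results of these data known, so its count is not independent evidence. These 32 genes had a median log2 fold change of 0.73. Without IL-25 plus ADM2 replicate 2, 18 of them were called. Ptgs2, which encodes the prostaglandin-forming enzyme COX-2, had 512, 530.2 and 468 CPM with IL-25 and 2063 and 2094 CPM with ADM2 added (log2 fold change 2.05 ± 0.10, adjusted p = 5.01e-09). Its levels with vehicle (144, 146 and 131 CPM) and with ADM2 alone (349, 416 and 362 CPM) were below those of IL-25 plus ADM2. Rgs2, an inhibitor of G protein signalling, rose from 141, 114 and 127 CPM to 301 and 347 CPM (log2 fold change 1.35 ± 0.12, adjusted p = 3.7e-06). Gem, a small GTPase, rose by 1.10 ± 0.09 and the transcription factor Fos by 1.08 ± 0.10.

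The wider sets of early response genes and of signalling brakes showed the same direction. They share members with the cAMP and CREB list, among them Fos and Rgs2, so they are not separate evidence. Of 27 immediate early and AP-1 factors, 16 were higher and 1 lower (Batf, -0.48 ± 0.15), with a median of 0.58. Batf was not called without either IL-25 plus ADM2 library, IL-25 replicate 1 or 3, vehicle replicate 3 or ADM2 replicate 3. Fosb had 250.2, 414 and 369 CPM with IL-25 and 1249.7 and 973 CPM with ADM2 added (log2 fold change 1.69 ± 0.18, adjusted p = 1.51e-05), and the nuclear receptor Nr4a2 rose by 1.61 ± 0.18. Nr4a1 rose from 1440.2, 1990 and 2014 CPM to 3017 and 2948 CPM (log2 fold change 0.72 ± 0.12, adjusted p = 0.000884), and Junb and Jund by 0.58 ± 0.08 and 0.75 ± 0.10. Of 22 RGS, DUSP and Sprouty genes, whose products damp G protein and MAP kinase signals, 11 were higher and 1 lower (Rgs19, -0.46 ± 0.13), with a median of 0.69. Rgs19 was not called without either IL-25 plus ADM2 library, IL-25 replicate 2 or 3, or vehicle replicate 1 or 3. The MAP kinase phosphatase Dusp10 had 27.2, 31.3 and 30.7 CPM with IL-25 and 111 and 109 CPM with ADM2 added (log2 fold change 1.89 ± 0.11, adjusted p = 3.81e-08). Spry1, an inhibitor of receptor tyrosine kinase signalling, had 15.4, 29.7 and 28.2 and 103 and 101 CPM (log2 fold change 2.06 ± 0.21, adjusted p = 1.12e-05), and Dusp5 rose by 1.42 ± 0.11. The groups did not overlap for any of these 3 genes.

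The promoters of the tested genes were searched for the palindromic cAMP response element, TGACGTCA, in the 250 bases before each start, on both strands. Windows from RefSeq (GRCm38.p6) were available for 11253 of the 15028 tested genes. The palindrome stood in 2.99% of these genes, in 4.26% of the 752 called higher and in 2.26% of the 973 called lower. Of 25 cAMP and CREB induced genes with a window, called or not, 4 held it (16%). These were listed as known CREB targets, so their share of such sites does not bear on ADM2. The core TGACG, which also lies inside the palindrome, stood in 29.5% of all genes, 34.8% of those called higher, 32.5% of those called lower and 20 of the 25 (80%). The E-box CACGTG, a site bound by MYC and by clock factors, stood in 9.5% of all genes, 7.85% of those called higher and 13.8% of those called lower. A match is a description of the letters and not evidence of binding. The stretches below come from the 6 named genes that were called and held the palindrome. Of these, 5 rose: the growth factor Areg, stress phosphatase subunit Ppp1r15a, anti-proliferative gene Btg2, PKA subunit Prkar1a and transcription factor Hlf. The other, the cytokine receptor kinase Jak1, fell. Capitals mark the palindrome, and each stretch is written 5′ to 3′ on the strand of the gene: Areg chr5:91139508-91139575 (plus), Ppp1r15a chr7:45526269-45526310 (minus), Btg2 chr1:134079284-134079351 (minus), Prkar1a chr11:109650870-109650937 (plus), Hlf chr11:90390918-90390956 (minus) and Jak1 chr4:101265287-101265354 (minus).
Areg: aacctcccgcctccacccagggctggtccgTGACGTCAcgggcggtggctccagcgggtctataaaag
Ppp1r15a: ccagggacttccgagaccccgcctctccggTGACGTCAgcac
Btg2: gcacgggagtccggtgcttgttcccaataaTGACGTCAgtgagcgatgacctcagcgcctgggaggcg
Prkar1a: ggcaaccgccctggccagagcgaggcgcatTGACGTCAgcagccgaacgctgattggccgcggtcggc
Hlf: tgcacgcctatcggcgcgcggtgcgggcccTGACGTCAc
Jak1: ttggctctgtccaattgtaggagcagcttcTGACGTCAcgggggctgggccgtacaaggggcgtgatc
Starts are those of the RefSeq windows, which for Prkar1a and Jak1 are transcript starts inside the annotated gene and not its outermost start. The palindrome ended 53 bases before the start in Areg, 4 in Ppp1r15a, 158 in Btg2, 41 in Prkar1a, 1 in Hlf and 93 in Jak1. Beside these sequences, Areg rose by 1.48 ± 0.12, Ppp1r15a by 0.95 ± 0.13, Btg2 by 0.74 ± 0.11, Hlf by 0.68 ± 0.11, and Jak1 fell from 1108, 1121 and 1104 CPM with IL-25 to 779 and 691 CPM with ADM2 added (log2 fold change -0.60 ± 0.10, adjusted p = 0.000605).

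Among secreted cytokines Il5, Il2, Il9, Il17a and Il17f rose, while Il13 was not called. Of 23 tested cytokine genes, 10 were higher and 2 lower, with a median log2 fold change of 0.48. Il5 (chr11:53720794-53725103, protein-coding, GRCm38.p6), which encodes the eosinophil growth factor, had 5321, 4436 and 5281 CPM in the IL-25 libraries and 12538 and 14859 CPM in the IL-25 plus ADM2 libraries. It rose by 1.45 ± 0.10 (adjusted p = 4.15e-07), and its share of all counts went from 0.42% to 0.502% over the IL-25 libraries to 1.17% and 1.34% with ADM2 added. Vehicle libraries held 495, 589 and 579 CPM of Il5 and libraries with ADM2 alone 2103, 2079 and 1947 CPM. Il13 (chr11:53631323-53634702), the neighbouring cytokine gene that drives mucus secretion, had 2834, 2644 and 3078 CPM with IL-25 and 2333 and 2578 CPM with ADM2 added. Both values with ADM2 lay below the 3 without it, but the change of -0.22 ± 0.10 did not pass the test (adjusted p = 0.166). Il13 levels were 269.8, 302 and 272 CPM with vehicle and 156, 134 and 143 CPM with ADM2 alone.

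The T cell growth factor gene Il2 had 5.13, 7.88 and 3.52 CPM with IL-25 and 40.5 and 40.2 CPM with ADM2 added (log2 fold change 2.87 ± 0.29, adjusted p = 1.25e-05). Il17a had 2.67, 6.63 and 5.13 CPM and 22.6 and 35.6 CPM (log2 fold change 2.59 ± 0.38, adjusted p = 0.00029), and Il17f 49.6, 43.5 and 52 CPM and 184 and 202 CPM (log2 fold change 1.99 ± 0.16, adjusted p = 1.24e-06). These 3 genes showed no overlap between the groups. Il9, a mast cell and ILC2 growth factor, had 1647, 1319 and 1606 CPM with IL-25 and 2406 and 2789.8 CPM with ADM2 added (log2 fold change 0.77 ± 0.14, adjusted p = 0.00182). The IL-6 family member Osm rose by 0.95 ± 0.10. Il6 was called lower, from 1128, 1042 and 1122 CPM to 727 and 883 CPM (log2 fold change -0.45 ± 0.12, adjusted p = 0.023), but the settings in which its call was lost included those without IL-25 replicate 3 (adjusted p = 0.0653) and without IL-25 plus ADM2 replicate 2 (adjusted p = 0.258). Ltb, which encodes lymphotoxin beta, fell with a log2 fold change of -0.99 ± 0.17. Csf2, the GM-CSF gene, had 1567, 1357 and 1523 CPM and 1387 and 1833 CPM, and its groups overlapped (adjusted p = 0.622).

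**Figure D2:**
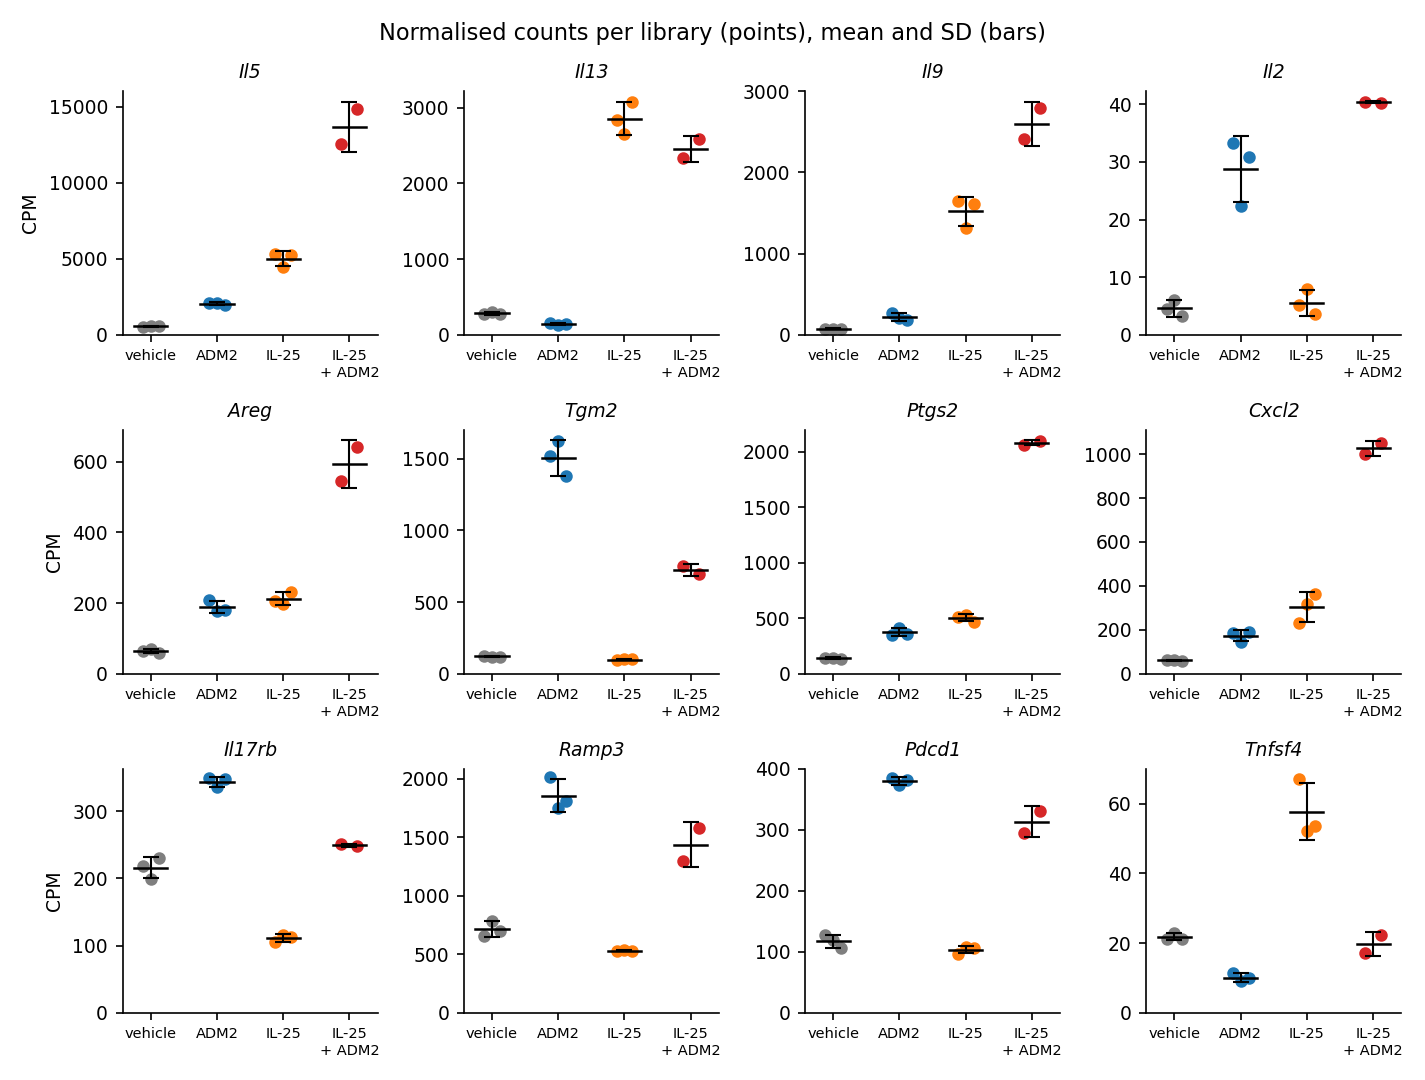
CPM (y axis, from 0) of 12 genes in each library (points) of the 4 groups (x axis), with the group mean as a bar and the SD as an error bar. The IL-25 plus ADM2 points lie above the IL-25 points for every gene shown except Il13 and Tnfsf4, where they lie below.

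Among 26 genes of tissue repair and proteolysis, 9 were higher and 1 lower, with a median of 0.09. Areg, which encodes the epidermal growth factor family member amphiregulin, had 207, 199 and 232 CPM with IL-25 and 545 and 641 CPM with ADM2 added (log2 fold change 1.48 ± 0.12, adjusted p = 1.26e-06). Tgm2 (chr2:158116405-158146392, protein-coding), the tissue transglutaminase that cross-links extracellular proteins, had 95.8, 100 and 101 CPM and 752 and 694 CPM (log2 fold change 2.87 ± 0.09, adjusted p = 8.58e-11). With vehicle and ADM2 alone Tgm2 stood at 121 ± 5.27 and 1505 ± 123 CPM (mean ± SD, n = 3 each), so its highest level was in cultures with ADM2 and no IL-25. Plaur, the urokinase receptor, rose by 1.33 ± 0.16, the bone morphogenetic protein Bmp2 by 1.00 ± 0.18 and the growth factor Tgfa by 1.42 ± 0.27. Pdgfb, a growth factor for mesenchymal cells, was the member called lower, at 16.6, 20 and 21.2 CPM with IL-25 and 8.04 and 2.41 CPM with ADM2 added (log2 fold change -1.88 ± 0.42, adjusted p = 0.00692), and lost its call without IL-25 plus ADM2 replicate 3 (adjusted p = 0.0675). Without IL-25 replicate 1, 2 members were lower.

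Of 14 tested chemokine genes, 4 were higher and 1 lower, with a median of 0.53. The neutrophil chemokine Cxcl2 had 232, 319 and 362 CPM with IL-25 and 1003 and 1052 CPM with ADM2 added (log2 fold change 1.76 ± 0.15, adjusted p = 2.85e-06). Its relatives Cxcl3 and Cxcl1 rose by 1.11 ± 0.15 and 1.04 ± 0.16, and Ccl1, a ligand of CCR8, by 0.80 ± 0.17. The call of Ccl1 was lost without IL-25 plus ADM2 replicate 3 (adjusted p = 0.106). Cxcl16, the ligand of CXCR6, fell from 39.3, 39.9 and 33.2 CPM to 19.1 and 16.9 CPM (log2 fold change -1.06 ± 0.18, adjusted p = 0.000814).

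Receptors for cytokines included Csf2rb2 and Csf2rb, both among the 15 largest increases under the naming rule. Of 32 tested, 10 were higher and 3 lower (Il18rap, Tgfbr1 and Il12rb1), with a median of 0.19. Csf2rb2 (chr15:78282507-78305721, protein-coding), a mouse beta subunit for the IL-3 receptor, had 20.8, 27.4 and 19.9 CPM with IL-25 and 207 and 198 CPM with ADM2 added (log2 fold change 3.16 ± 0.13, adjusted p = 1.3e-09). Its paralog Csf2rb, the common beta chain for IL-3, IL-5 and GM-CSF, had 6.94, 9.27 and 6.83 CPM and 39.5 and 44.5 CPM (log2 fold change 2.45 ± 0.22, adjusted p = 4.09e-06). The 2 genes are nearly identical in sequence, so reads may be split between them uncertainly. Il17rb, the subunit that binds IL-25, had 105, 116 and 113 CPM with IL-25 and 251 and 248 CPM with ADM2 added (log2 fold change 1.17 ± 0.09, adjusted p = 1.55e-06), beside 218, 199 and 230.3 CPM with vehicle and 349, 335 and 347 CPM with ADM2 alone. The IL-33 receptor Il1rl1 rose by 0.78 ± 0.08, the IL-2 receptor beta chain Il2rb by 0.82 ± 0.08 and Ifngr1 by 0.91 ± 0.11. Without IL-25 plus ADM2 replicate 3 the counts of this list were 6 higher and 0 lower, and without IL-25 replicate 1 there were 6 lower.

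Chemokine receptors, integrins and residency genes included 10 of 28 members higher and 2 lower, with a median of 0.28, and 6 were higher when IL-25 replicate 2 or either IL-25 plus ADM2 library was left out. Ccr8 had 85.9, 119 and 106 CPM with IL-25 and 263 and 253 CPM with ADM2 added (log2 fold change 1.31 ± 0.12, adjusted p = 5.96e-06). Cxcr4, the receptor of CXCL12, had 192, 177 and 168 CPM and 379.7 and 484 CPM (log2 fold change 1.27 ± 0.14, adjusted p = 2.3e-05), and Cxcr6 rose by 0.70 ± 0.12. Integrin chains were divided: Itgb3 rose by 0.50 ± 0.10, whereas Itgb1 (-0.63 ± 0.10) and Itgb2 (-0.53 ± 0.09) fell.

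Of 32 co-stimulatory and inhibitory receptors and ligands, 8 were higher and 4 lower, with a median of 0.28. Pdcd1, which encodes the inhibitory receptor PD-1, had 96.9, 108 and 106 CPM with IL-25 and 295 and 331 CPM with ADM2 added (log2 fold change 1.60 ± 0.10, adjusted p = 1.86e-07). Cd28 and Tnfrsf18 (GITR), both co-stimulatory, rose by 1.01 ± 0.10 and 1.00 ± 0.13, and Tnfsf11, which encodes RANKL, by 0.87 ± 0.11. Tnfsf4, the OX40 ligand that ILC2s present to T cells, fell from 67.2, 52.3 and 53.6 CPM to 17.2 and 22.2 CPM (log2 fold change -1.55 ± 0.16, adjusted p = 1.89e-05), close to its vehicle level of 21.3, 22.9 and 21.1 CPM. Tnfsf10, the death ligand TRAIL, fell with a log2 fold change of -1.33 ± 0.15. Among 25 tested receptors for neural, lipid and purinergic signals, 7 were higher and 6 lower (3 lower without IL-25 plus ADM2 replicate 3), with a median of 0.19. The receptor Gpr35 had 5.01, 4.73 and 4.39 CPM with IL-25 and 20.1 and 14.7 CPM with ADM2 added (log2 fold change 1.89 ± 0.21, adjusted p = 2.48e-05), the adenosine receptor Adora2a rose by 0.79 ± 0.09 and the acid sensor Gpr65 by 1.03 ± 0.12, while the prostaglandin E receptor Ptger2 was lower at -0.97 ± 0.12.

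Transcription factors of the lymphoid lineage also moved, 11 of 32 higher (5 without IL-25 plus ADM2 replicate 2) and 6 lower, with a median of 0.31. Lmo4, a LIM-domain adaptor of transcription complexes, had 206, 193 and 204 CPM with IL-25 and 927 and 1115 CPM with ADM2 added (log2 fold change 2.35 ± 0.10, adjusted p = 2.21e-09). Hhex had 1.6, 3.21 and 2.35 CPM and 15.9 and 18.3 CPM (log2 fold change 2.83 ± 0.29, adjusted p = 1.39e-05), and Myb 3.24, 4.19 and 3.43 CPM and 11.8 and 17.8 CPM (log2 fold change 2.03 ± 0.31, adjusted p = 0.000416). Gfi1, a zinc finger repressor needed for ILC2 function, fell from 96.9, 87.9 and 104 CPM to 36.3 and 38.4 CPM (log2 fold change -1.36 ± 0.12, adjusted p = 2.6e-06). Ikzf3 rose by 1.19 ± 0.15 and Nfil3 by 0.91 ± 0.11. The ILC2 master regulator Gata3 had 709.5, 1141 and 1006 CPM and 1372 and 1311 CPM (log2 fold change 0.49 ± 0.14, adjusted p = 0.0266), and its call was lost in settings that included leaving out either IL-25 plus ADM2 library (adjusted p up to 0.146).

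In cytokine receptor signalling, 5 of 23 JAK, STAT and SOCS genes were higher and 5 lower, with a median of 0.07, and 2 higher and 3 lower without IL-25 plus ADM2 replicate 3. Stat5a, the mediator of IL-2 and IL-7 signals, had 547, 812 and 815 CPM with IL-25 and 403 and 382 CPM with ADM2 added (log2 fold change -0.88 ± 0.15, adjusted p = 0.00073), and Stat5b fell as well (log2 fold change -0.69 ± 0.11, adjusted p = 0.000553). Socs2, a feedback inhibitor, and Stat4 each rose by 1.05. Of 27 NF-kB subunits, inhibitors and targets, 7 were higher and 7 lower, with a median of -0.09. Nfkbiz (0.79 ± 0.10), the inhibitor Tnfaip3 (0.65 ± 0.09) and the subunit Rel (0.96 ± 0.16) rose. Cd83 fell from 128, 99.6 and 106 CPM to 44.2 and 57.4 CPM (log2 fold change -1.13 ± 0.16, adjusted p = 0.000166). The adhesion molecule Icam1 fell with a log2 fold change of -0.89 ± 0.11. Without IL-25 plus ADM2 replicate 3 the NF-kB counts were 4 higher and 3 lower, and without IL-25 plus ADM2 replicate 2, IL-25 replicate 2 or 3, vehicle replicate 3 or ADM2 replicate 3 they held 4 lower. Of 17 clock genes 4 were higher and 2 lower, with a median of 0.19, among them Hlf (0.68 ± 0.11) and, lower, the repressor Nr1d1 (-0.61 ± 0.15), with 2 higher and 0 lower without IL-25 plus ADM2 replicate 3. There were 2 higher without IL-25 replicate 1 or IL-25 plus ADM2 replicate 2, and 1 lower without the latter, IL-25 replicate 2 or 3, ADM2 replicate 3 or any vehicle library.

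Genes for making ribosomes fell together. Of 38 genes of ribosome biogenesis and RNA polymerase I, 0 were higher in edgeR's quasi-likelihood test (0 at an unadjusted p below 0.05 and 0 with DESeq2) and 33 lower, with a median log2 fold change of -0.63. Utp20, a component of the machine that processes ribosomal RNA, had 216, 215 and 195 CPM with IL-25 and 74 and 64 CPM with ADM2 added (log2 fold change -1.60 ± 0.14, adjusted p = 3.51e-06). Rrp12, a ribosome export factor, had 165, 211 and 212 CPM and 81.7 and 73.9 CPM (log2 fold change -1.33 ± 0.15, adjusted p = 2.81e-05), and Polr1a, the largest subunit of RNA polymerase I, 183, 194 and 167 CPM and 80.9 and 69 CPM (log2 fold change -1.28 ± 0.15, adjusted p = 3.14e-05). The groups did not overlap for these genes. Relative to vehicle, the median level over the 38 genes was 1.76 with IL-25, 1.12 with IL-25 plus ADM2 and 0.644 with ADM2 alone. The 30 cytosolic ribosomal protein genes had no edgeR call in either direction (1 higher and 0 lower at an unadjusted p below 0.05), with estimates from -0.09 to 0.39 and a median of 0.07. With DESeq2, and without IL-25 replicate 1, 1 of them was called higher.

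Nucleotide and one-carbon synthesis fell alongside, with 0 of 31 higher (edgeR, and 0 at an unadjusted p below 0.05 or with DESeq2) and 23 lower and a median of -0.72. Mthfd1, a folate enzyme that supplies purine synthesis, had 174, 164 and 171 CPM with IL-25 and 62 and 58.7 CPM with ADM2 added (log2 fold change -1.49 ± 0.10, adjusted p = 4.79e-07). The folate carrier Slc19a1 had 91.9, 97.9 and 107 CPM and 28.7 and 30.2 CPM (log2 fold change -1.75 ± 0.15, adjusted p = 2.51e-06), and the serine enzyme Shmt1 48.2, 47.5 and 47.6 CPM and 15.9 and 13 CPM (log2 fold change -1.73 ± 0.15, adjusted p = 2.6e-06). The purine enzymes Atic and Gart fell with log2 fold changes of -1.09 ± 0.11 and -1.05 ± 0.12, and the CTP synthase Ctps of -0.99 ± 0.11. Over the 31 genes the median level relative to vehicle was 1.34 with IL-25, 0.889 with IL-25 plus ADM2 and 0.69 with ADM2 alone. Amino acid transporters and tRNA synthetases gave 0 of 22 higher (edgeR, with 1 at an unadjusted p below 0.05 and 0 with DESeq2) and 14 lower, with a median of -0.46, and 9 lower without either IL-25 plus ADM2 library. Slc7a5, the large neutral amino acid transporter, had 559, 680.5 and 651 CPM and 355 and 336 CPM (log2 fold change -0.87 ± 0.11, adjusted p = 7.34e-05), and the valyl-tRNA synthetase Vars fell with a log2 fold change of -0.86 ± 0.11.

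**Figure D3:**
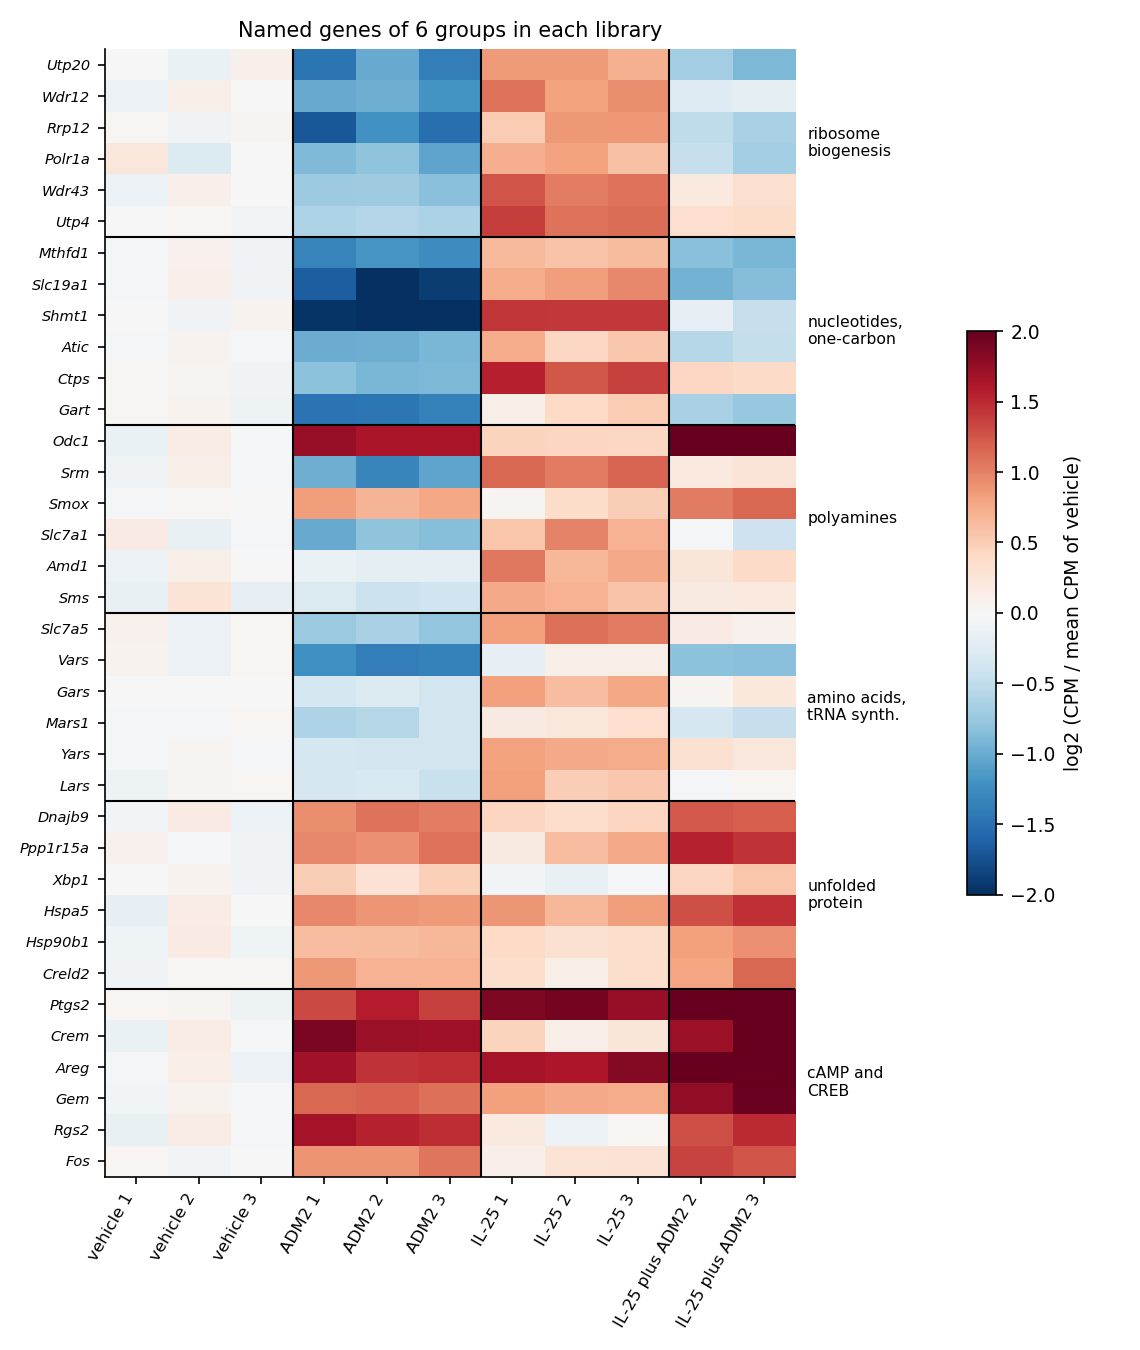
Log2 ratio of CPM to the mean of the vehicle libraries (colour, saturated beyond 2 in either direction) for the named genes of 6 groups (rows) in each of the 11 libraries (columns). The 12 named genes of ribosome biogenesis and nucleotide synthesis are redder with IL-25 than with IL-25 plus ADM2, as Utp20 at 216, 215 and 195 against 74 and 64 CPM, and the cAMP and CREB genes are reddest with IL-25 plus ADM2 or with ADM2 alone.

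The MYC network, which drives these biosynthetic genes in growing cells, was mixed at 3 of 13 higher and 3 lower, with a median of -0.20. Myc had 618, 750.3 and 753 CPM with IL-25 and 521 and 514 CPM with ADM2 added (log2 fold change -0.45 ± 0.10, adjusted p = 0.00596), beside 267, 259 and 258 CPM with vehicle, and its call was lost without IL-25 plus ADM2 replicate 3 (adjusted p = 0.0646). Its paralog Mycn went the other way, from 36, 34 and 34.9 CPM to 102 and 108 CPM (log2 fold change 1.59 ± 0.12, adjusted p = 1.03e-06). The MYC antagonists Mxi1 and Mxd1 rose by 1.15 ± 0.09 and 1.03 ± 0.15, and the MYC-induced factor Tfap4 fell from 28.5, 29.3 and 41 CPM to 13 and 9.98 CPM (log2 fold change -1.52 ± 0.23, adjusted p = 0.000338). Without IL-25 plus ADM2 replicate 3, 1 member of the network was called lower. Polyamine and arginine genes were also mixed, with 3 of 17 higher and 5 lower, with a median of -0.12. Odc1, the ornithine decarboxylase that starts polyamine synthesis, had 1039, 1039 and 1024 CPM with IL-25 and 3352 and 3677 CPM with ADM2 added (log2 fold change 1.76 ± 0.09, adjusted p = 8.6e-09). The spermidine synthase Srm fell from 402, 375 and 409 CPM to 209 and 217 CPM (log2 fold change -0.89 ± 0.11, adjusted p = 9.47e-05), the arginine transporter Slc7a1 with a log2 fold change of -0.96 ± 0.15, and the polyamine oxidase Smox rose by 0.78 ± 0.11. Leaving out IL-25 plus ADM2 replicate 2 gave 2 polyamine genes lower, and leaving out replicate 3 gave 3.

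Of 28 genes of the unfolded protein and integrated stress response, 15 were higher and 1 lower (Asns, -0.52 ± 0.15), with a median of 0.35. Asns was not called without either IL-25 plus ADM2 library, IL-25 replicate 1, ADM2 replicate 3 or vehicle replicate 1 or 3. The chaperone Hspa5 (BiP) had 2498, 2147 and 2430.3 CPM with IL-25 and 3306 and 3739.8 CPM with ADM2 added (log2 fold change 0.58 ± 0.10, adjusted p = 0.000983). Dnajb9, Hsp90b1 and the transcription factor Xbp1 rose by 0.81 ± 0.11, 0.52 ± 0.09 and 0.57 ± 0.10. Leaving out either IL-25 plus ADM2 library left 8 higher. Chaperones and heat shock genes of cytosol and mitochondria had 2 of 19 higher and 5 lower, a median of -0.17, and 1 lower without IL-25 plus ADM2 replicate 2. Dnajb4 rose by 1.21 ± 0.15, and the mitochondrial chaperones Hspa9 (-0.57 ± 0.09) and Hspd1 (-0.68 ± 0.14) fell.

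Among 27 genes of glycolysis and hypoxia 6 were higher and 0 lower (edgeR, with 3 lower at an unadjusted p below 0.05 and 1 with DESeq2), with a median of 0.10. There were 3 higher without either IL-25 plus ADM2 library, and 1 lower without IL-25 replicate 2. Egln3, an oxygen-sensing prolyl hydroxylase that HIF induces, had 135, 136 and 144 CPM with IL-25 and 557 and 598 CPM with ADM2 added (log2 fold change 2.06 ± 0.09, adjusted p = 1.94e-09), and Hif1a rose by 0.72 ± 0.09. Cholesterol and fatty acid synthesis had 0 of 30 higher (edgeR, with 1 at an unadjusted p below 0.05 and 1 with DESeq2) and 8 lower, with a median of -0.26. There were 3 lower without IL-25 plus ADM2 replicate 3, and leaving out IL-25 replicate 3 gave 5. Acaca, which commits carbon to fatty acids, had 41.2, 45.9 and 44.2 CPM and 26.8 and 19.5 CPM (log2 fold change -0.92 ± 0.16, adjusted p = 0.00134), and the sterol enzyme Sqle fell with a log2 fold change of -0.72 ± 0.12. The 25 oxidative phosphorylation genes tested had no edgeR call (0 higher and 1 lower at an unadjusted p below 0.05, 0 with DESeq2), with a median of -0.09.

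Cell cycle and replication genes had 2 of 28 higher (Ccnd3 and Cdkn1a, 0 without either IL-25 plus ADM2 library, 1 without IL-25 replicate 1 or ADM2 replicate 1) and 5 lower, with a median of -0.06. The kinase Cdk6 had 51, 60.1 and 51.5 CPM with IL-25 and 27.6 and 21.1 CPM with ADM2 added (log2 fold change -1.15 ± 0.16, adjusted p = 0.000224), and the cyclin Ccnd2 748, 719.7 and 679.7 CPM and 431 and 396 CPM (log2 fold change -0.79 ± 0.12, adjusted p = 0.000268). Of 20 BCL2 family and death receptor genes 1 was higher (Bcl2l1, not called without IL-25 plus ADM2 replicate 3) and 4 lower (2 without IL-25 plus ADM2 replicate 2), with a median of 0.11. The pro-apoptotic gene Bid fell from 23.5, 21.9 and 25.4 CPM to 7.07 and 8.95 CPM (log2 fold change -1.56 ± 0.21, adjusted p = 0.000132). Regulators of mRNA decay gave 5 of 17 higher and 1 lower (Cnot6l, not called without IL-25 plus ADM2 replicate 3), with a median of 0.19, and Tob1 rose from 17.7, 24.1 and 19.6 CPM to 50.5 and 50.5 CPM (log2 fold change 1.30 ± 0.14, adjusted p = 1.6e-05). TGF-beta and SMAD genes gave 5 of 22 higher, among them Tgfb1 (0.53 ± 0.10), and 1 lower, Tgfbr1 (-0.41 ± 0.12), with a median of 0.15. Tgfbr1 was not called without IL-25 plus ADM2 replicate 3, IL-25 replicate 2 or 3, ADM2 replicate 3 or any vehicle library. Calcium and NFAT genes gave 3 of 23 higher (1 without IL-25 plus ADM2 replicate 2) and 0 lower (edgeR, with 5 at an unadjusted p below 0.05 and 1 with DESeq2 or without ADM2 replicate 2), with a median of 0.01. Among them was the channel subunit Orai1 (0.67 ± 0.12). Of 27 interferon-stimulated genes 0 were higher (edgeR, and 0 at an unadjusted p below 0.05 or with DESeq2) and 2 lower. The median of the group was -0.16. The 2 were Oas3 (-1.04 ± 0.19) and Gbp2 (-0.45 ± 0.14), 7.41% of the group against 8.1% of all genes tested. The 2 cell cycle genes called higher were 7.14% of their group, against 6.53% of all genes. Both shares were near those of all genes. Gbp2 was not called in any fit that left out 1 library, other than those without ADM2 replicate 1 (3 lower) or IL-25 replicate 2 (2 lower and 1 higher).

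**Figure D4:**
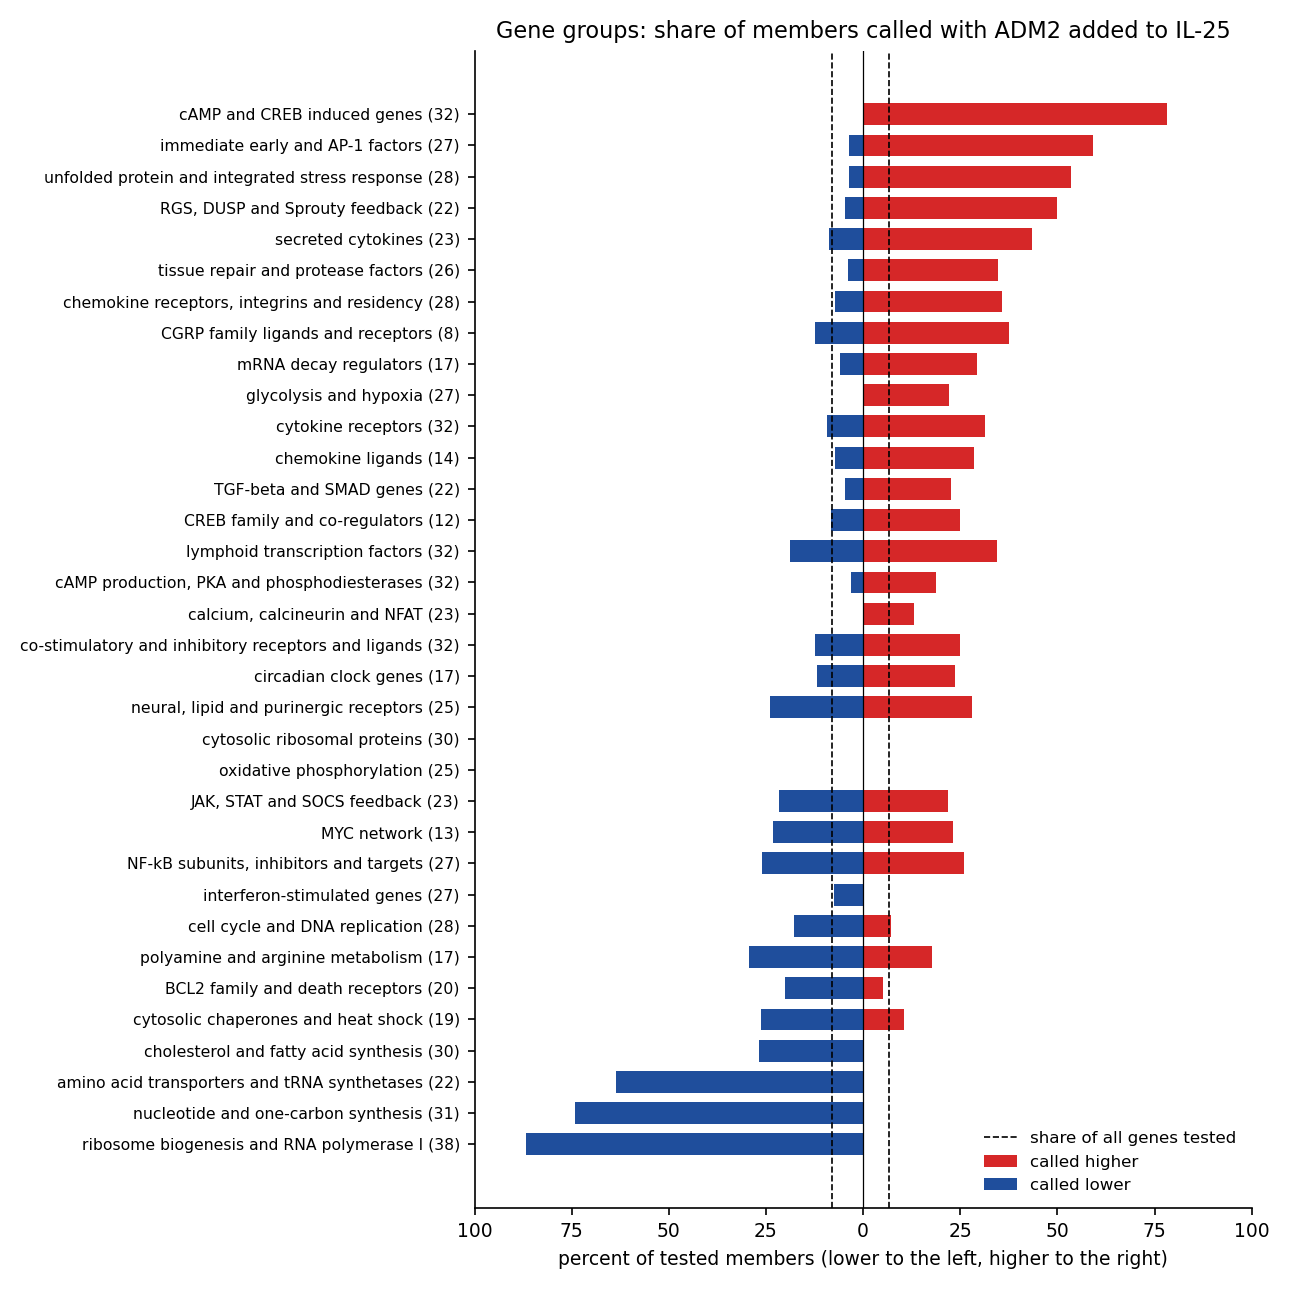
Percent of the tested members of each of 34 gene groups (rows, number tested in brackets) called higher (red, to the right) or lower (blue, to the left) with ADM2 added to IL-25. Dashed lines mark the shares over all genes tested, 6.53% higher and 8.1% lower. Ribosome biogenesis reaches 33 of 38 to the left and cAMP and CREB induced genes 25 of 32 to the right.

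Outside these groups, Ncald, Grhl2, Nlrp3 and Eml1 were among the 15 largest increases. Ncald, a calcium sensor of neurons, had 2.42, 3.18 and 2.63 CPM with IL-25 and 18 and 20 CPM with ADM2 added (log2 fold change 2.79 ± 0.26, adjusted p = 5.26e-06). Grhl2, an epithelial transcription factor, had 5.87, 6.02 and 4.6 CPM and 25.3 and 26.3 CPM (log2 fold change 2.23 ± 0.24, adjusted p = 1.98e-05). Nlrp3, the inflammasome sensor, had 8.58, 13.5 and 11 CPM and 48.9 and 46.7 CPM (log2 fold change 2.11 ± 0.19, adjusted p = 3.97e-06). In none of the 3 did the groups overlap. The microtubule-binding gene Eml1 rose by 2.31 ± 0.34.

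The largest decrease under the naming rule was in Dnah12, a dynein heavy chain of motile cilia, which had 109.8, 91.8 and 93.3 CPM with IL-25 and 13.2 and 14.3 CPM with ADM2 added (log2 fold change -2.84 ± 0.13, adjusted p = 4.11e-09). Vehicle libraries held 48.3, 47 and 46.8 CPM and those with ADM2 alone 14.2, 13.8 and 12.6 CPM, so that both groups with ADM2 lay between 12.6 and 14.3 CPM. Dctd, which makes dUMP for thymidine synthesis, had 22.6, 24.2 and 20.4 CPM and 6.38 and 5.68 CPM (log2 fold change -1.89 ± 0.18, adjusted p = 8.36e-06). Klrg2, a lectin-like receptor, fell from 20.1, 18.9 and 18.9 CPM to 4.97 and 5.23 CPM (log2 fold change -1.92 ± 0.26, adjusted p = 0.000131), and the guidance ligand Sema3e from 13.7, 13.5 and 14.5 CPM to 4.35 and 3.34 CPM (log2 fold change -1.86 ± 0.32, adjusted p = 0.000908). The histamine receptor Hrh2 and the purinergic receptor P2ry1 fell with log2 fold changes of -1.70 ± 0.40 and -1.61 ± 0.33, and lost their calls without IL-25 plus ADM2 replicate 2 (adjusted p = 0.11) and replicate 3 (adjusted p = 0.0646) respectively. Nkain1, Focad, Ppp1r3e, Mex3a, Dleu2 and Oaf were also among the 15 largest decreases, from -1.90 for Nkain1 to -1.61 for Oaf. Nkain1 was not called without IL-25 plus ADM2 replicate 3 (adjusted p = 0.139), nor Oaf without either IL-25 plus ADM2 library (adjusted p up to 0.114).

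The ADM2 effect in IL-25 was set beside that of ADM2 alone against vehicle, a comparison that shares no library with it. ADM2 alone changed 2227 genes (14.8%), 1111 higher (7.39%) and 1116 lower (7.43%). Of the 981 genes higher with IL-25 present, 687 (70%, and 61.8% of the 1111) were also higher without it and 3 were lower. Of the 1217 genes lower with IL-25 present, 734 (60.3%, and 65.8% of the 1116) were also lower without it and 1 was higher. The log2 fold changes with and without IL-25 had a Pearson correlation of 0.222 across all 15028 genes. Over the 2198 genes called with IL-25 present it was 0.482. A direct test of the difference between the effects called 5 genes (0.0333% of those tested), 2 higher (0.0133%) and 3 lower (0.02%), and 1028 had an unadjusted p below 0.05. No gene passed this test without IL-25 replicate 2 or without IL-25 replicate 3, 1 did without any 1 ADM2 or IL-25 plus ADM2 library, and 2 without vehicle replicate 1 or 3. Tagap, a GTPase-activating protein of activated lymphocytes, was 1 of the 5, with 79.3, 81.1 and 87 CPM with IL-25 and 35.5 and 34 CPM with ADM2 added (log2 fold change -1.25 ± 0.14, adjusted p = 3.47e-05). Without IL-25, Tagap had 21, 23.5 and 17.4 CPM with vehicle and 20.4, 21.2 and 24.9 CPM with ADM2 (0.10 ± 0.13, adjusted p = 0.689), and the difference of the effects was -1.35 ± 0.19 (adjusted p = 0.0293). For Dnah12 the effect was -2.84 ± 0.13 with IL-25 and -1.81 ± 0.11 without it, a difference of -1.03 ± 0.16 (adjusted p = 0.046).

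Several key genes had unequal estimates without passing the test of the difference. Il13 fell with ADM2 alone (-0.96 ± 0.09, adjusted p = 2.42e-06) and was at -0.22 ± 0.10 with IL-25 present (adjusted p of the difference 0.0881). Tgm2 rose by 3.64 ± 0.09 without IL-25 and 2.87 ± 0.09 with it (adjusted p of the difference 0.0565). Ptgs2 rose by 1.42 ± 0.09 without IL-25 and 2.05 ± 0.10 with it (adjusted p 0.199), and Il9 by 1.58 ± 0.13 and 0.77 ± 0.14 (adjusted p 0.335). Cd83 was at -0.09 ± 0.14 without it and -1.13 ± 0.16 with it (adjusted p of the difference 0.199) and Jak1 at 0.08 ± 0.08 and -0.60 ± 0.10 (adjusted p 0.175). A p that misses the threshold does not show that the effects were alike.

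**Figure D5:**
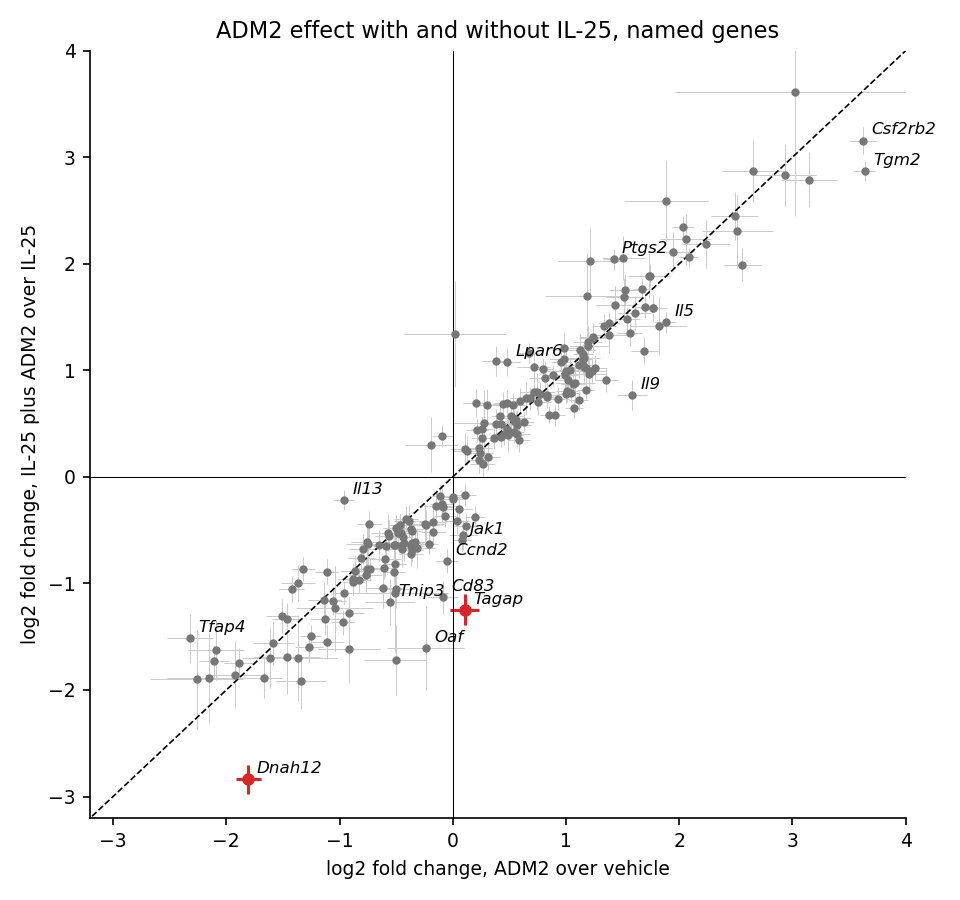
Log2 fold change of ADM2 with IL-25 present (y axis) against that without IL-25 (x axis) for 226 named genes, with bars of 1 SE and a dashed line of equal effects. Red points are Tagap (0.10 against -1.25) and Dnah12 (-1.81 against -2.84), 2 of the genes past the test of the difference.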

How the data were processed

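The deposited table gives read counts as whole numbers, not normalised, for 27179 Entrez Gene IDs in 11 libraries. The submitters' processing notes, which name no roles, list featureCounts, limma and mm10. Aligner, annotation release and strand setting: not given in the sources used here. Overlapping genes (90 of 228 named, including Dnah12, Tagap, Ramp3, Csf2rb2 and Odc1) are therefore uncertain. RefSeq (GRCm38.p6) matched symbols to 25275 IDs and left 1904 without. Testing used edgeR 4.0.16 (R 4.3.3) on these counts, with TMM scaling and genes kept by filterByExpr at a minimum count of 10. One fit held a mean for each group over all 11 libraries, and p-values were adjusted by Benjamini-Hochberg over 15028 genes. Errors after ± are, unless given as SD, approximate SEs, computed from the estimate and its F value. The scripts were tested on simulated data. Replicate libraries differed beyond sampling noise (chi-square per degree of freedom 16.6 to 58.1). The IL-25 pairs gave 58.1, 43.3 and 19.6 and the vehicle pairs 44.6, 16.6 and 38.3. The ADM2 pairs gave 32.3, 20.5 and 25 and the IL-25 plus ADM2 pair 29.1. On the third principal component (10.8% of the variance), IL-25 replicates 1 and 3 lay far apart, at -66.98 and 64.26. Every other library lay between -11.77 and 6.168 on it. Alternatives were DESeq2 1.42.0, voom in limma 3.58.1, other scalings and filters, the compared groups alone, a replicate term and leaving out each library.

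Members and lists were chosen with earlier results of these data known. The naming rule took the 15 largest changes each way (mean log2 CPM of 2 or more, groups apart), 6 members of each list by smallest p, genes past the test of the difference, 17 genes of interest and those nearest the threshold. Members outside it (Batf, Rgs19, Asns, Ccnd3, Il18rap, Il12rb1 and the cell markers) were named after their values were seen. Results for some genes are not reported here.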

Additional observations from a re-analysis of the deposited data

Results flagged for a closer look

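The ADM2 effect differed between cultures with and without IL-25 in 5 genes by a test of the difference itself, of which 4 are reported here. These were Tagap (adjusted p = 0.0293), Dnah12 (adjusted p = 0.046) and the immunoglobulin segments Ighv1-19 (adjusted p = 0.009) and Igkv17-127 (adjusted p = 0.046). Ighv1-19 had 0, 0 and 0.0309 CPM with IL-25, 2.9 and 10.9 CPM with IL-25 plus ADM2, 7.15, 6.98 and 4.62 CPM with vehicle and 5.97, 13.7 and 10.1 CPM with ADM2 alone. Igkv17-127 had 14.4, 15.9 and 15.2 CPM with IL-25 and 0 and 0 CPM with IL-25 plus ADM2, beside 0, 0.162 and 3.07 CPM with vehicle and 6.15, 9.98 and 19.1 CPM with ADM2 alone. Immunoglobulin genes as a class held 0.421% to 0.535% of counts in the 5 libraries with IL-25. The part of B lineage cells in these values was not tested.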

How the results depend on the processing

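Of 199 named genes called, 152 kept their call and direction in all 20 other settings and 47 lost it in at least 1. Of 29 not called, 9 were called in at least 1. Without IL-25 plus ADM2 replicate 3, the estimates of Csf2 and Rplp0 changed sign. Over fits that left out 1 library they ran from -0.095 to 0.31 for Csf2 and from -0.012 to 0.31 for Rplp0. The number of genes called with ADM2 added to IL-25 was 1263 to 2261 over fits that left out 1 library (586 to 1118 higher, 677 to 1212 lower), lowest without an IL-25 plus ADM2 library, where the remaining library is assumed to vary like the other groups. It was 1481 in the 5 libraries alone (793 lower) and 2790 with DESeq2. The difference of the ADM2 effect gave 5 genes, and 0 to 6 with a library left out (higher 0 to 3, lower 0 to 3), 0 without IL-25 replicate 2 or 3. It gave 47 without a filter (20 higher, 27 lower), 47 with DESeq2 (23 and 24), 3 at a minimum count of 30 (1 lower), 1 with voom (0 higher, 1 lower) and 2 with voom weights (1 and 1). ADM2 without IL-25 gave 1662 to 2555 genes (728 to 1283 higher, 844 to 1272 lower). The deviations of same-numbered IL-25 and IL-25 plus ADM2 libraries from their group means had r = 0.0685 and 0.0263 across genes (replicates 2 and 3). With 2 IL-25 plus ADM2 libraries, their deviations mirror each other. These values therefore cannot decide whether the numbers are a pairing. With a replicate block, 1653 genes were called (747 higher, 906 lower), Gata3 and Il6 were not, and the difference gave 2 (1 and 1). The cause was not tested. Counting depth limits genes under a few CPM, and 2 libraries on 1 side limit every estimate.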

Other observations

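Some genes used as markers of other cell types were well expressed and changed with ADM2, while some defining markers of those cell types were at or near 0. Hdc, which encodes the histamine-forming enzyme, had 13.3, 12.1 and 13.2 CPM with IL-25 and 36.3 and 50.2 CPM with ADM2 added (log2 fold change 1.75 ± 0.18, adjusted p = 1.58e-05), whereas the other 6 mast cell and basophil markers were low. Of these, Mcpt4 and Tpsab1 were at 0 in all 5 libraries, and Mcpt1 reached 0.821, Fcer1a 0.432, Mcpt8 0.413 and Cpa3 0.344 CPM in their highest library. The adhesion gene Epcam had 152, 137 and 153 CPM and 62.1 and 62.9 CPM (log2 fold change -1.23 ± 0.11, adjusted p = 3.7e-06), beside 11.5, 3.48 and 0.927 and 17.2 and 1.2 CPM for the epithelial keratin Krt8, whose values overlapped. Xcr1, a chemokine receptor of dendritic cells, had 68.9, 63.6 and 63.5 CPM and 111 and 127 CPM (log2 fold change 0.86 ± 0.12, adjusted p = 0.000225), whereas Zbtb46, a transcription factor of dendritic cells, fell from 16.6, 21 and 18.6 CPM to 11.1 and 12.8 CPM (log2 fold change -0.65 ± 0.19, adjusted p = 0.0331). Of the other 4 dendritic cell markers, Clec9a and Siglech were at 0, and Itgax and Flt3 reached 1.93 and 0.371 CPM. Among NK and ILC3 markers, Gzma (0.57 ± 0.17) and Il1r1 (0.81 ± 0.23) were higher.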
